A study of Mus musculus with 2 samples.

Results

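The mitochondrial ribosomal protein genes are the nuclear genes whose symbols start with Mrpl, for the large subunit, or Mrps, for the small subunit, followed by a digit. They were selected by symbol among probe sets named to a single gene, and genes on chromosome 14 were left out by rule and are given separately. This gave 56 genes, 37 of the large and 19 of the small subunit, of 10313 genes in all. The tested culture was 46C mouse embryonic stem cells overexpressing the long noncoding RNA LincU, and its reference was a control culture of the same line. Both were grown on a feeder layer in 15% serum with leukaemia inhibitory factor (LIF) at 1000 U/ml, and the feeder was removed before the RNA was taken. Each was measured on 1 Affymetrix 3' expression array, so differences have no replicate check, no test was made, and having a single array per culture limits precision. The labels do not state how LincU was overexpressed or whether either culture was a single clone.

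The mitochondrial ribosome translates the few mRNAs that mitochondrial DNA encodes, nearly all of them for membrane subunits of the respiratory chain and ATP synthase. Its RNAs come from mitochondrial DNA, whereas its proteins are encoded in the nucleus, translated in the cytosol and imported. Some of these proteins have counterparts in the bacterial ribosome and others were acquired by the mitochondrial ribosome alone. Naive embryonic stem cells use mitochondrial respiration beside glycolysis, and loss of mitochondrial ribosomal proteins causes respiratory chain disease in humans.

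Signals of these genes were slightly higher in the LincU culture across both subunits, and the differences were small. The median log2 difference, LincU overexpression minus control, was 0.11 over the 37 large subunit genes and 0.093 over the 19 small subunit genes. Of the large subunit genes 31 were higher and 6 lower, and of the small subunit genes 13 were higher and 6 lower. Across the 5402 genes off chromosome 14 that were bright enough to be compared, 50.8% were higher and the median was 0.0057. A gene counted as bright if the array with its higher signal was at or above the median of that array's probe sets named to a single gene, 7.90 for the LincU array or 7.96 for the control array. All 56 members were above that median on both arrays, so none entered through only the array where it was high. In such bulk RNA, fewer cells of a type and less RNA per cell cannot be told apart.

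**Figure D1:**
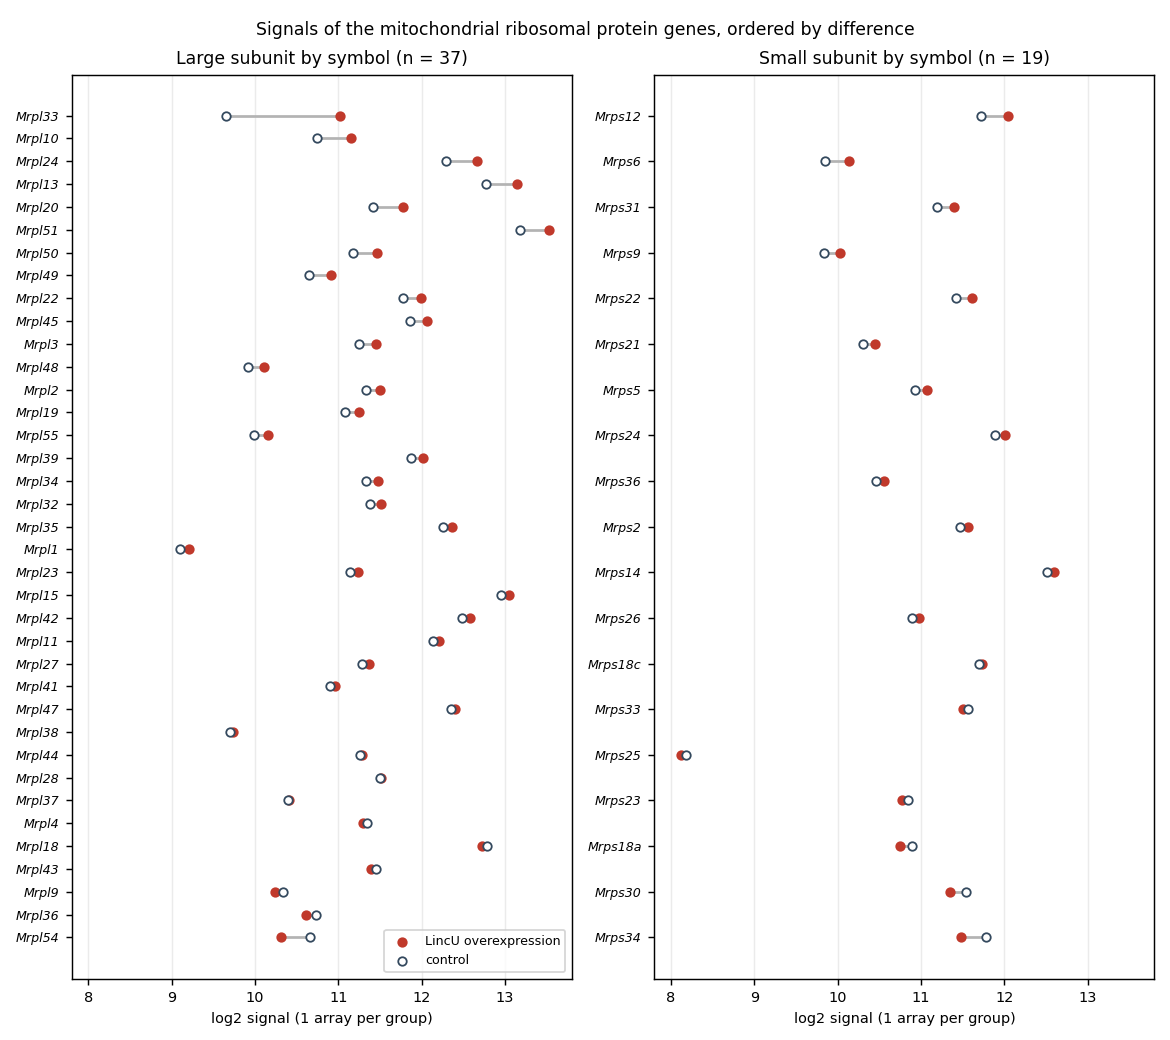
Log2 signal of each mitochondrial ribosomal protein gene on the LincU overexpression array (filled) and the control array (open), with genes ordered by their difference. The filled point lies to the right in 31 of 37 large and 13 of 19 small subunit genes, and Mrpl33 has the widest gap.

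Only Mrpl33, which encodes a small large-subunit protein with a bacterial counterpart, was past 1.5-fold. Its log2 signal was 11.02 in LincU cells and 9.65 in control cells, a log2 difference of 1.37 or 2.58-fold. No large subunit gene was at least 1.5-fold lower, and none of the 19 small subunit genes was past 1.5-fold in either direction. Among all bright genes off chromosome 14, 3.76% were at least 1.5-fold higher, 5.63% at least 1.5-fold lower and 0.87% at least 2-fold higher. The share of members past 1.5-fold in either direction, 1 of 56, was thus not above that of the background. That background includes many genes of lower signal, whose differences spread more widely, so these shares are not at like signal.

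The Mrpl33 value rests on 1 probe set. Its other probe set was dim, with a log2 signal of 5.74 in LincU cells and a control signal under 5.73, the floor to which low control signals were raised. This probe set therefore gave a floored difference of 0.0098, which is set by the floor and says little about Mrpl33. With both probe sets averaged, the floored one included, the difference of Mrpl33 was 0.69. The 10 nearest bright protein-coding genes in chromosome order, 5 on each side, differed by -0.36 to 0.46 with a median of 0.039. Beside Mrpl33, the closest such genes were Slc4a1ap at 0.021 and Babam2 at 0.21, so its neighbours did not share a difference of its size. The 363 bright genes of chromosome 5 had a median of 0.027.

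Upstream sequences are shown for the members with the largest and smallest differences in each subunit among the 49 found in the RefSeq promoter table, and for Mrpl10, the large subunit member with the next largest difference. They are RefSeq sequences of build GRCm38.p6, written 5′ to 3′ along the gene from 200 bases before to 20 after its start. Capitals mark matches, on either strand, to letters of 6 motif families: GCATGCGC for NRF1, CCGGAAG for ETS factors such as GABPA, ATGGCGGC for YY1, CACGTG for E-boxes, GGGCGG for GC-boxes and CCAAT for CCAAT-boxes. A match describes the letters and not a bound site. The windows lie at chr5:31613751-31613970 on the plus strand for Mrpl33, chr11:97041382-97041601 on the plus strand for Mrpl10 and chr13:73330809-73331028 on the plus strand for Mrpl36. Those of Mrps12 and Mrps30 lie at chr7:28741802-28742021 and chr13:118387233-118387452, both on the minus strand.
Mrpl33: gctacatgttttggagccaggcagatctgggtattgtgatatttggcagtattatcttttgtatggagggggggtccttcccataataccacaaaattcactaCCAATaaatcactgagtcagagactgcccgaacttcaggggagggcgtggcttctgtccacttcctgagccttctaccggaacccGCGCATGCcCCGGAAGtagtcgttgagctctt
Mrpl10: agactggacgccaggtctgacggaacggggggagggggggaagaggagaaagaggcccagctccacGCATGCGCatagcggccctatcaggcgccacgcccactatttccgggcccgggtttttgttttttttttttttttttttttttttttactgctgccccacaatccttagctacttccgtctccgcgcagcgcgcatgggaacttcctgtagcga
Mrpl36: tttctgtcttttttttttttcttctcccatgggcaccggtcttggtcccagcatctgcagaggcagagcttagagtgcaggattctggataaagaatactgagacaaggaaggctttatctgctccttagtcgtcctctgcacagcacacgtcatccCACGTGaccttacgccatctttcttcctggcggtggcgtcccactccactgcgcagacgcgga
Mrps12: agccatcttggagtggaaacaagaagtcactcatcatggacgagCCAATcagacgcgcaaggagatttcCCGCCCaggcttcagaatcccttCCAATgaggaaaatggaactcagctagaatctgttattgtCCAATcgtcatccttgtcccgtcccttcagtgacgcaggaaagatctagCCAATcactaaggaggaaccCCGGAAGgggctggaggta
Mrps30: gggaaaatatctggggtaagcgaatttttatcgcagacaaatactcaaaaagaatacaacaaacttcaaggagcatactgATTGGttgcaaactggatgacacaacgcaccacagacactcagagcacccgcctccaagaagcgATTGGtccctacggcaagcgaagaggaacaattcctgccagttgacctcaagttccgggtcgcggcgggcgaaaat

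In Mrpl33 an NRF1 match and an ETS match stood side by side at the gene start, beginning 12 and 3 bases before it. Within the printed bases Mrps12 held 4 CCAAT matches, a GC-box and an ETS match, and Mrps30 held only a pair of CCAAT matches. Outside the printed bases, the 300-base window of Mrps30 also held a YY1 match and that of Mrpl36 a CCAAT match. Over the whole promoter windows of 300 bases, 16 of the 49 members held the ETS motif, 32.7%, against 21.9% of 4466 promoters of bright genes off chromosome 14 and 9.12% of all 27025 genes with a promoter in the table. The NRF1 motif was in 6 members, 12.2%, against 6.83% of bright genes and 2.80% of all. These 6 were among the 31 large subunit members with a promoter, and none was among the 18 of the small subunit. So few matches do not set the subunits apart. YY1 letters were in 9 members, 18.4%, against 6.38% and 2.38%. E-boxes were in 10.2% of members, 11.2% of bright genes and 7.24% of all, and CCAAT-boxes in 44.9%, 39.7% and 37.9%. The GC-box was in 46.9% of members, against 68.8% of bright genes and 35.9% of all. None of the 117 matches in members overlapped a match to another of the motifs. Median log2 differences were 0.18 with and 0.098 without the NRF1 letters, and 0.11 both with and without the ETS letters. With the YY1 letters the median was 0.077, and without them 0.12. For the E-box the medians were 0.027 with and 0.11 without, for the GC-box 0.11 and 0.10, and for the CCAAT-box 0.090 and 0.11. Some of these groups hold few genes, and no motif was tested against the differences.

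Starts of members were also set against those of neighbouring genes. Of the 49 members, 16 (32.7%) had the start of another gene on the opposite strand within 1000 bases upstream, against 912 of 4466 bright genes off chromosome 14 (20.4%). In 7 of these pairs the partner was itself bright, and 4 of those 7 pairs had the same sign in member and partner. The same share was not computed for pairs of other genes, so this count shows no link within pairs. Mrpl32 differed by 0.13 and the proteasome subunit gene Psma2, which starts 205 bases away, by 0.12. Mrpl47 differed by 0.047 and its partner Ndufb5, a complex I subunit gene, by 0.21. Mrpl2 differed by 0.18 and its partner Klc4, a kinesin light chain gene, by -0.71, but Klc4 was above the median only on the control array. Without that pair, 4 of 6 pairs had the same sign. Mrpl27 and its partner Eme1, a DNA repair endonuclease gene, also differed in sign, at 0.077 and -0.45, as did Mrpl18 and Tcp1, at -0.061 and 0.013. Mrpl49 and Fau, at 0.26 and 0.089, and Mrpl51 and Ncapd2, at 0.35 and 0.26, had the same sign.

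Among the other large subunit genes, 5 had differences from 0.35 to 0.40. Mrpl10, which encodes the protein at the base of the flexible stalk that recruits translation factors, had 11.15 in LincU cells and 10.74 in control cells, a difference of 0.40. Mrpl24, near the opening of the peptide exit tunnel, had 12.67 in LincU cells and 12.29 in control cells, a difference of 0.38. In bacteria the counterpart of Mrpl20 binds ribosomal RNA early in assembly. Its log2 signal was 11.77 in LincU cells and 11.42 in control cells, a difference of 0.35. Mrpl13, which also has a bacterial counterpart, had 13.14 in LincU cells and 12.78 in control cells, a difference of 0.37. Its other bright probe set differed by 0.17. Mrpl51, a protein without a bacterial counterpart, had 13.53 in LincU cells and 13.18 in control cells, a difference of 0.35. It is the only member in the stretch of chromosome 6 from Rad18 to Resf1, which was also left out as an alternative.

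Lower signals in the large subunit were fewer and, apart from Mrpl54, close to 0. Mrpl54, a protein specific to the mitochondrial ribosome, had 10.31 in LincU cells and 10.66 in control cells, a difference of -0.35. Mrpl36, the counterpart of a small bacterial ribosomal protein, had 10.61 in LincU cells and 10.74 in control cells, a difference of -0.13. The other lower genes were Mrpl9 at -0.096, Mrpl43 at -0.065, Mrpl18 at -0.061 and Mrpl4 at -0.052. Mrpl4 stood at 0.0027 with each array centred on its median, so its direction depends on the scaling.

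Structural neighbourhoods of the large subunit followed the same slight shift. All 6 measured genes of the peptide exit tunnel were higher, with a median of 0.17, and 1 gene of that list was not analysed here. Besides Mrpl24 they included Mrpl22, whose protein lines the tunnel, at 0.22 and Mrpl45, which faces the inner membrane, at 0.21. Of the stalk genes Mrpl11 had a difference of 0.079 beside the 0.40 of Mrpl10, and Mrpl12 was not analysed here. Other bright probe sets of Mrpl11 stood at 0.073 and 0.49, and a dim one at -0.66. In the central protuberance 5 of 6 measured genes, Gadd45gip1 among them, were higher, with a median of 0.11, a largest difference of 0.19 in Mrpl48 and the lower Mrpl18. These lists were drawn up with earlier results of these data known, and their medians are descriptions.

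Mrps12 and Mrps6 had the largest differences of the small subunit. Mrps12, the counterpart of a bacterial protein of the decoding centre, had 12.04 in LincU cells and 11.72 in control cells, a difference of 0.32. Mrps6 had 10.13 in LincU cells and 9.84 in control cells, a difference of 0.29. Mrps31, Mrps9, Mrps22 and Mrps21 followed at 0.20, 0.20, 0.19 and 0.15. Mrps22, specific to the mitochondrial ribosome and mutated in a human respiratory chain disorder, had 11.62 in LincU cells and 11.42 in control cells.

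At the other end, Mrps34, also a human disease gene, had 11.48 in LincU cells and 11.78 in control cells, a difference of -0.29. Mrps30 had 11.35 in LincU cells and 11.53 in control cells, a difference of -0.18. Mrps18a, one of a family of paralogues that share a bacterial counterpart, had 10.74 in LincU cells and 10.89 in control cells, a difference of -0.15. Its paralogue Mrps18c had 11.73 in LincU cells and 11.70 in control cells, a difference of 0.027, and with quantile normalization -0.016. Smaller negative differences were seen in Mrps23 at -0.075, Mrps25 at -0.057 and Mrps33 at -0.056. Mrps25 stood at 0.0042 once a trend of the difference on signal was subtracted.

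Symbols and structure do not fully coincide, because Mrps18a and Mrps30 are placed in the large subunit in ribosome structures, and Mrps36 has been assigned to the ketoglutarate dehydrogenase complex. Mrps36 had 10.55 in LincU cells and 10.46 in control cells, a difference of 0.093. Divided by structure, 31 of 39 large subunit genes were higher with a median of 0.11, and 12 of 16 small subunit genes with a median of 0.10. The subunits thus stood at nearly equal medians either way.

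Proteins with a bacterial counterpart and proteins specific to the mitochondrial ribosome were counted apart within each subunit by symbol. In the large subunit, 20 of 24 genes with a counterpart were higher, with a median of 0.12, as were 11 of 13 specific genes, with a median of 0.087. In the small subunit, 9 of 10 genes with a counterpart were higher, with a median of 0.13, whereas 3 of 8 specific genes were higher, with a median of -0.057; Mrps36 was in neither class. The lower ones of these 8 were Mrps34, Mrps30, Mrps23, Mrps25 and Mrps33. These are counts of few genes on single arrays, and the difference between the classes was not tested.

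Different probe sets of a gene are the only repeated measurements at hand, and they hold no variation between cultures. The 56 members were covered by 87 probe sets, of which 77 were bright, and 58 of the bright ones were higher and 19 lower. Where a member had more than 1 bright probe set, as 17 did, the SD of the log2 difference among them was 0.17, against 0.23 over 1732 such genes in all. Differences beyond 0.2 in size were seen in 16 of the 56 members, against 46.1% of all bright genes off chromosome 14. Those shares are not at like signal. The median signal on the LincU array was 11.39 for the members and 10.10 for all bright genes, whose differences spread less widely as signal rose. Of the 17 members, 10 were higher and 2 lower on every bright probe set, and 5 had mixed signs. Of the 77, 2 probe sets, 1 each of Mrpl35 and Mrpl38, were above the median only on the LincU array, where they were higher. Among the 75 above it on both arrays, a count added after seeing the data, 56 were higher and 19 lower, and 8 of 15 members with several were higher on all of them.

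**Figure D2:**
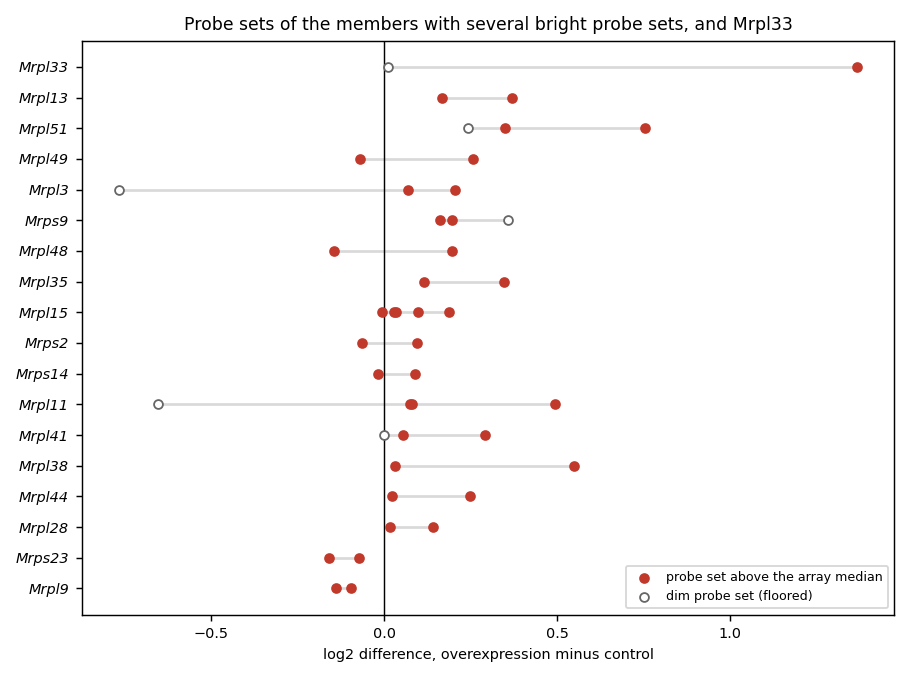
Log2 difference, LincU overexpression minus control, of each probe set of the 17 members with several bright probe sets and of Mrpl33. Filled points are bright and open points dim probe sets, and the points of 10 of the 17 members lie right of 0 on every bright probe set.

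Mrpl48 and Mrpl49 were the members whose bright probe sets differed in sign by over 0.3. Mrpl48 had 10.11 in LincU cells and 9.91 in control cells on 1 probe set, a difference of 0.19, and -0.14 on the other. Mrpl49 had 10.91 in LincU cells and 10.65 in control cells on 1 probe set, a difference of 0.26, and -0.070 on the other. Mrpl38, chosen after its values were seen, had the widest spread of bright probe sets, at 0.55 and 0.031, but the one at 0.55 was above the median only on the LincU array. On Mrpl51 the bright probe sets differed by 0.35 and 0.75, both higher in LincU cells.

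The differences of all bright genes shifted slightly with signal. Their median was -0.081 for genes with a mean log2 signal from 8 to 9, -0.00084 from 10 to 11, 0.025 from 11 to 12 and 0.049 at 13 or above. Most members lay from 10 to 12, where 49.8% of genes from 10 to 11 and 55.4% from 11 to 12 were higher. Set against the median of all genes in their own signal range, 29 of 37 large and 14 of 19 small subunit genes were above it. With a smooth trend of the difference on signal subtracted, the medians were 0.12 for the large and 0.078 for the small subunit.

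**Figure D3:**
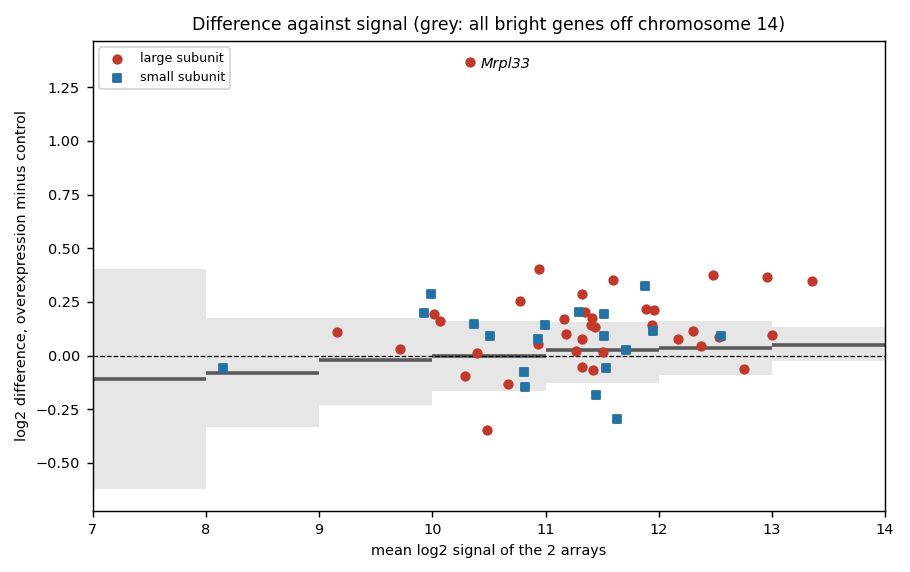
Log2 difference, LincU overexpression minus control, of the members against their mean log2 signal. Grey bars show the median and shaded boxes the middle 50 percent of all bright genes off chromosome 14 in each signal range (the left box holds all genes under 8), and 29 of 37 large and 14 of 19 small subunit genes lie above the bar of their range.

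Other gene sets with high signals showed medians of like size. The 68 bright oxidative phosphorylation subunit genes off chromosome 14 stood at a median of 0.16, with 60 higher. The 42 bright cytosolic ribosomal protein genes stood at a median of 0.094, with 36 higher. Large and small subunit members, at 0.11 and 0.093, lay in the same range, so the slight shift is not shown to be particular to the mitochondrial ribosome. The middle 80 percent of the members' differences ran from -0.085 to 0.34, against -0.43 to 0.37 over all bright genes, whose median signal was lower and whose spread narrowed as signal increased. In the oxidative phosphorylation set it ran from -0.022 to 0.38, and in the cytosolic set from -0.012 to 0.16.

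**Figure D4:**
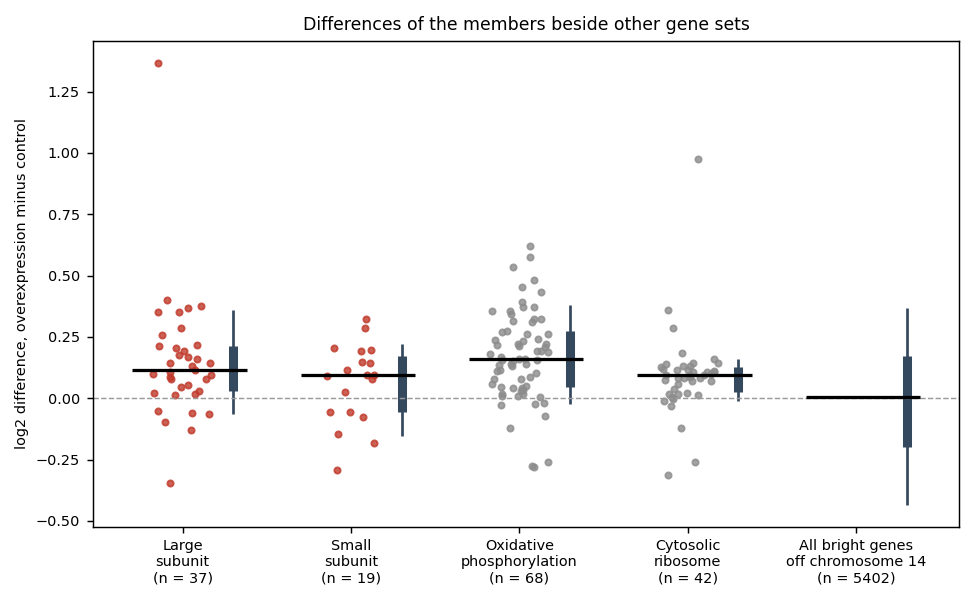
Log2 difference, LincU overexpression minus control, for single genes (points) of the subunits of the mitochondrial ribosome and comparison sets. Black lines are medians, thick bars the middle 50 percent and thin bars the middle 80 percent; medians of 0.11, 0.093, 0.16 and 0.094 stand beside 0.0057 for all bright genes off chromosome 14, whose points are not drawn.

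Apart from genes not analysed by name, the mitochondrial ribosomal protein genes outside the rule lie on chromosome 14 or have other symbols. The differences of those measured had both signs. On chromosome 14, Mrpl52 had 11.11 in LincU cells and 11.47 in control cells, a difference of -0.36, and Mrpl57 a difference of -0.55. Chchd1, a small subunit protein gene that also lies on chromosome 14, had 13.31 in LincU cells and 12.33 in control cells, a difference of 0.98. Off that chromosome, Ptcd3, a small subunit protein with RNA-binding repeats, differed by 0.37 and Gadd45gip1, of the large subunit, by 0.14. Of 78 protein-coding genes with such symbols in RefSeq, 20 were not analysed here by name, among them Mrpl30, whose probe set shares its name with another gene.

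Genes that work with the mitochondrial ribosome gave a mixed picture. Of 8 bright genes in the translation factor list 6 were higher, with a median of 0.25 and none past 1.5-fold. That list is broader than its name, since it holds the mRNA-binding protein genes Lrpprc at 0.25 and Slirp at 0.29. Tufm, the elongation factor that brings tRNA to the ribosome, had 9.85 in LincU cells and 9.38 in control cells, a difference of 0.47. The factors that act when ribosomes are recycled went the other way, with Gfm2 at -0.47 and Mrrf at -0.38. Of 15 bright assembly factor genes 11 were higher, with a median of 0.088. Spg7 and Afg3l2, subunits of the inner membrane protease that matures a large subunit protein, differed by 0.57 and 0.43. Mettl17, a small subunit assembly factor gene on chromosome 14, differed by -0.79 and was the only one of that list past 1.5-fold.

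Of 8 bright genes that express or maintain mitochondrial DNA 7 were higher, with a median of 0.13. They included Tfb2m, a mitochondrial transcription factor, at 0.41, the mitochondrial RNA polymerase gene Polrmt at 0.19 and the single-strand binding protein gene Ssbp1 at 0.15. Mitochondrial tRNA synthetases and the amidotransferase that completes glutamine tRNA had a median of 0.053, with 6 of 9 bright genes higher. Among them Hars2 differed by 0.27, Gatb by 0.23 and Qrsl1 by -0.40, although Qrsl1 was above the median only on the control array. Nuclear regulators known to act on genes of mitochondria or ribosomes had a median of -0.065, with 2 of 7 bright genes higher. Mycn, a MYC family transcription factor gene, had 12.32 in LincU cells and 12.86 in control cells, a difference of -0.53. Nrf1, which encodes the factor that binds the NRF1 motif, had 9.37 in LincU cells and 9.69 in control cells, a difference of -0.32, and Gabpb1, a subunit of the ETS factor GABP, differed by 0.14.

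**Figure D5:**
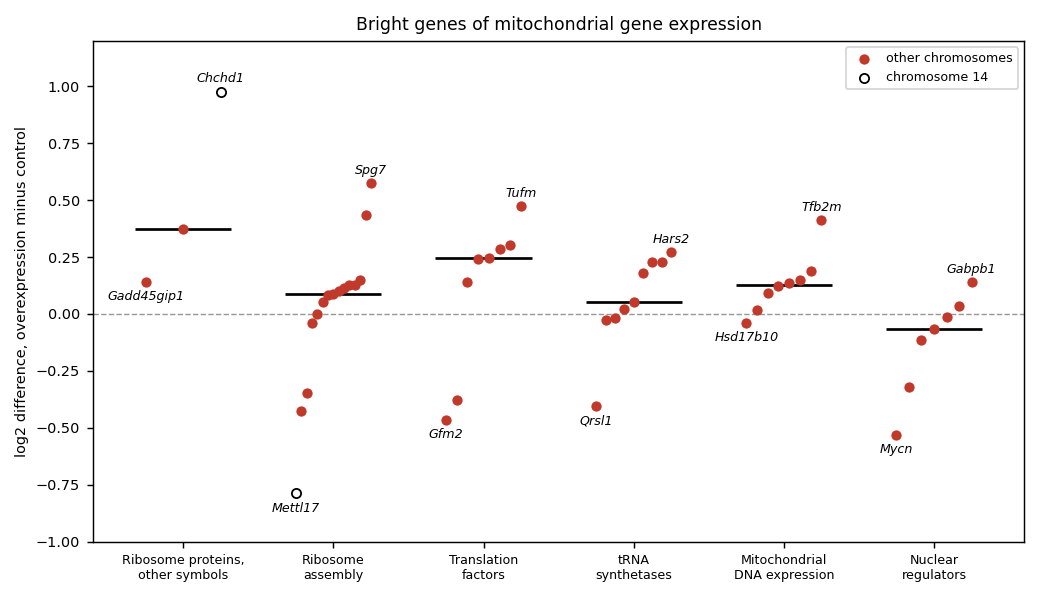
Log2 difference, LincU overexpression minus control, of the bright genes in 6 lists of mitochondrial gene expression, with a line at each median. Open points are genes on chromosome 14. The medians run from -0.065 for nuclear regulators to 0.25 for the translation factor list, which includes Lrpprc and Slirp. For the 3 ribosomal proteins with other symbols the median is 0.37, or 0.26 without Chchd1 on chromosome 14.

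Of the genes known from human respiratory chain disease, 9 of 13 were measured and all were bright. Of these 6 were higher, with a median of 0.089, a range of -0.29 in Mrps34 to 0.38 in Mrpl24, and Mrpl3 at 0.20.

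The cell type of the cultures was read from marker genes. Pou5f1 had 13.34 in LincU cells and 13.55 in control cells, and 9 of 10 pluripotency markers were measured, all bright. Of these 6 were higher and 3 lower, with a median of 0.28, larger than the medians of the ribosomal subunits, and 1 was past 1.5-fold. Esrrb, Nanog and Utf1 differed by 0.65, 0.57 and -0.43. Of 13 feeder fibroblast markers 9 were bright, with log2 signals of 8.19 to 10.85 in LincU cells and 8.10 to 11.14 in control cells, and a median difference of -0.043. Linear signals of these 9 summed to 6751 in LincU cells and 7125 in control cells, and differences were largest in Pdgfrb (0.69), Mmp2 (-0.46) and Prrx1 (0.29). The 4 bright trophoblast markers of 5 were all lower, with Cdx2 at -1.89, Krt8 at -1.43 and Krt18 at -1.25, and log2 signals of 6.76 to 9.97 in LincU cells and 8.65 to 10.40 in control cells. Cdx2 was above the median only on the control array, so its direction was fixed by the brightness rule. Their linear signals summed to 1922 in LincU cells and 3816 in control cells, and Elf5, the remaining marker, was under the floor on both arrays. The part of these markers in the differences of the ribosomal protein genes was not tested.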

How the data were processed

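RNA of 2 cultures was measured on 1 array each. Log2 signals per probe set were used as deposited by the authors; MAS5 and affy are named without version or role, per the submitters' processing notes, and no source used here gives the scaling target. The log2 scale was read from the range of the values. Of 16994 probe sets, 15273 carried a single gene name in the platform annotation, 501 several, 1156 none, and 64 were controls. Symbols were updated through gene IDs with RefSeq (GRCm38.p6), which matched 15252.

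Signals under the 25th percentile of named probe sets (5.65 on the LincU array, 5.73 on the control array) were raised to it. A probe set under it on both arrays got a difference of 0. Each gene took the probe set with the highest mean signal. Signals of single genes were not compared with each other, since they depend on the probes. Signals did serve to group genes by range and to describe gene sets. Bright genes were those whose higher array was at or above its median over named probe sets. Counts used 1.5-fold and 2-fold. The counting rules were tested on simulated data with 2-fold shifts only, so differences as small as those of most members were not covered. Python 3.11.15 with pandas 2.3.3 was used.

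Members, lists, motifs and rules were chosen with earlier results of these data known. Genes named were, per subunit, the 6 with the largest difference in each direction, those past 1.5-fold, those whose bright probe sets differed in sign by over 0.3, Mrpl12, Mrps18a, Mrps18b, Mrps18c, Mrps30 and Mrps36, mitochondrial ribosomal protein genes with other symbols, and 3 per other list. Each gene's promoter was its RefSeq window of 250 bases before to 50 after the start, the first listed where there were several.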

Additional observations from a re-analysis of the deposited data

How the results depend on the processing

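Each of 13 alternatives covered the median and the counts of both subunits. They were centring on array medians, quantile normalization, a loess trend, no floor, flooring at the 40th percentile, a pseudocount of 64, all genes whatever their brightness, a cut-off at the 75th percentile, probe sets averaged, _s_at, _x_at and _a_at probe sets left out, subunits by structure, and leaving out the chromosome 6 stretch or taking in chromosome 14. The large subunit median ran from 0.098 to 0.17 and the small subunit median from 0.069 to 0.15. The highest values came with each array centred, where the median of all bright genes off chromosome 14 was 0.060. Centring put 259 of those genes at least 1.5-fold higher and 248 lower, against 203 and 304 as deposited. Those counts were 468 and 785 with dim genes taken in, and 60 and 64 with brightness at the 75th percentile. Under all 13 the large subunit had 24 to 32 higher genes and the small subunit 11 to 14, with fewer genes compared in some. Not all of the 13 are checks. The changes of floor and the inclusion of dim genes left every value as it was, since all members were above both medians. The chromosome 6 and chromosome 14 settings left the small subunit as it was. None of its measured genes lies in that stretch of chromosome 6 or on chromosome 14. Without the _s_at, _x_at and _a_at probe sets, which can be shared between transcripts, 2 large subunit genes of 30 were at least 1.5-fold higher, because Mrpl51 then rests on the probe set at 0.75. No setting put a small subunit gene past 1.5-fold, or a large subunit gene 1.5-fold lower. Mrpl33 stood at 0.69 with probe sets averaged, its dim and floored probe set included. Single values were followed for 28 of the named members, and 3 of these changed sign under an alternative: Mrpl4, Mrps25 and Mrps18c. The other members were followed only through the medians and counts. With probe sets averaged, dim ones included, 29 of 37 large subunit genes were higher, against 31 in the main setting. Mrpl3 and Mrpl11, outside those 28, then turned lower through dim probe sets at -0.77 and -0.66. No paired analysis was possible because each group has 1 array, and no replicate could be left out.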
